A study of Homo sapiens with 4 samples.

Results

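Long intergenic noncoding RNAs (lincRNAs) were examined in SNU-668, a line of human gastric cancer cells, through the 549 rows that the deposited gene table gives the biotype lincRNA, out of 16692 rows in all. The series text calls the cells resistant to erastin, an inhibitor of cystine import that induces ferroptosis, a cell death driven by iron and lipid peroxidation, while the library names carry RLS3. They held an shRNA against ALKBH3, a demethylase of nucleic acids, or a control shRNA that the genotype label calls WT. Each condition had 1 RNA library and 1 library of ribosome footprints, the mRNA fragments that translating ribosomes protect, so the 4 groups hold 1 library each and nothing here has a replicate check. ALKBH3 itself had 14 control footprints and 22 in the library labelled as its knockdown, and 0 counts in both RNA libraries. The second RNA and footprint libraries are therefore called knockdown-labelled.

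A lincRNA is transcribed by RNA polymerase II from its own promoter, is usually capped, spliced and polyadenylated, and holds no long open reading frame. Many start back to back with a coding gene from a shared promoter, others run opposite to a coding gene, and a few, such as MALAT1 and NEAT1 of the nuclear speckles and paraspeckles, are very abundant in most human cells. Some RNAs annotated in this class were later found to encode small proteins, which is why footprints on them are of interest. The table places each row on 1 strand of the hg19 genome. Strandedness of the RNA libraries, and its use in counting, were not given in the sources used here, so reads of a lincRNA and of a gene on the other strand at the same place cannot be told apart. All levels below are therefore counts that the table assigns to a row.

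The promoters of 4 lincRNAs that the results turn on are shown, each as the 250 bases before and 50 bases after the start in RefSeq (build GRCh38.p14; the hg19 spans of the table were not converted). LINC00942, the row with most RNA counts, has its RefSeq window at chr12:1500241-1500540 on the plus strand, with capitals that mark TGACTCGGC. The row itself is listed on the minus strand, so this window need not be the promoter of the RNA counted there. PPP1R12A-AS2, chr12:79689782-79690081 on the plus strand, is the lincRNA called higher in the knockdown-labelled library. It has no capitals, because its window shares 0 bases with that of PAWR, a coding gene it overlaps. TMED2-DT, chr12:123584278-123584577, and TMEM202-AS1, chr15:72474190-72474489, both on the minus strand, have RefSeq starts back to back with those of coding genes. Their capitals mark the bases that also lie in the window of the gene on the other strand, TMED2 or ARIH1.
LINC00942: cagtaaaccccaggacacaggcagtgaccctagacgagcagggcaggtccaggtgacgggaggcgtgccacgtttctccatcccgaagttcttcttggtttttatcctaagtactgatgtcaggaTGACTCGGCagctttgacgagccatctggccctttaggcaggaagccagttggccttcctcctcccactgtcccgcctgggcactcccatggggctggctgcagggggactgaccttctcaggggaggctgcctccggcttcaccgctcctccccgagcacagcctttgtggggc
PPP1R12A-AS2: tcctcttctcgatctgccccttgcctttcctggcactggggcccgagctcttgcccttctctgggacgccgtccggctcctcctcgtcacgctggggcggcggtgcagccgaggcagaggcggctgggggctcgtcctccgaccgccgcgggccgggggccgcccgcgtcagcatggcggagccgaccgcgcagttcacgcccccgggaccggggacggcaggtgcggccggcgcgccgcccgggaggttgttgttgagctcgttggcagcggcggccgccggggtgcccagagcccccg
TMED2-DT: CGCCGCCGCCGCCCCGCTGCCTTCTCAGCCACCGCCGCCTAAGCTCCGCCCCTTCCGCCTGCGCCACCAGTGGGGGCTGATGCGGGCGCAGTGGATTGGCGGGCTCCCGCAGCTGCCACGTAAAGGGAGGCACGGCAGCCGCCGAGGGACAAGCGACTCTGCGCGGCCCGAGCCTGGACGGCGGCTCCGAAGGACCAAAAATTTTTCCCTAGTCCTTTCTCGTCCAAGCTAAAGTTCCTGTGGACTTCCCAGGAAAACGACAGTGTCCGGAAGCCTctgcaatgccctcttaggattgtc
TMEM202-AS1: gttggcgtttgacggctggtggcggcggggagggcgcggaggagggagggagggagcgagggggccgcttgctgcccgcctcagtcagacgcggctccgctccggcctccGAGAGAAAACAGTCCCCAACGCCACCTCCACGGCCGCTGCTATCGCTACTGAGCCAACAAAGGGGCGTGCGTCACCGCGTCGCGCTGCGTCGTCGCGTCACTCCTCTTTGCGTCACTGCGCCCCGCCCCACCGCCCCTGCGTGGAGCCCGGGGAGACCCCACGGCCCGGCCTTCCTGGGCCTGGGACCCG
Of the 300 bases, 276 were shared between TMED2-DT and TMED2, and 190 between TMEM202-AS1 and ARIH1. The marked stretch in LINC00942 begins 125 bases before the start and matches TGACNNNGC, the core of the antioxidant response element bound by NRF2. A match to TGACNNNGC on either strand was held by 16 of the 169 lincRNA promoters matched by name (9.47%) and by 13.6% of the promoters of 27305 genes. A match to TGATGNAA, the core of the composite element bound by ATF4, was held by 3 of the 169 (1.78%) and by 3.67% of all promoters, and by none of the 4 windows shown. Such a match describes letters and not a bound site. CG dinucleotides numbered 11 in the LINC00942 window, 28 in TMED2-DT, 37 in TMEM202-AS1 and 40 in PPP1R12A-AS2, against a median of 14 in the 169 lincRNA promoters and 14 in all promoters. Of the 169 matched rows, 167 lie on the chromosome and strand that RefSeq gives. The 2 that lie on the other strand are RP11-38L15.8, now LINC02637, and LINC00942, the leading row.

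The lincRNA rows together held 6922 of 554075 RNA counts in the control library, or 1.25% (95% exact binomial interval 1.22 to 1.28), and 8837 of 689375 in the knockdown-labelled library, or 1.28% (1.26 to 1.31). These intervals cover counting error only, since PCR copies cannot be told from separate molecules without identifiers. The class is thin in this table, with a median of 3 counts over both libraries, and 357 rows (65.0%) had 1 to 5 counts. By the deposited RPKM (reads scaled by length and depth), the table totals were at most 2.92% and 2.995% of the depth. That holds if RPKM follows its usual definition. Both libraries held counts for 266 rows, the control library alone for 112 and the knockdown-labelled library alone for 171. At least 20 counts were reached by 99 rows, or 18.0%, and at least 100 counts by 26 rows. Every lincRNA and antisense row of the table has an RNA count, while 4751 protein-coding rows have none. Over rows with an RNA count, 22.0% of the 9183 protein-coding rows and 50.3% of the antisense rows reached 20. Across all 549 rows the counts of both libraries had a Spearman correlation of 0.525, and 0.794 across the 99 rows with at least 20 counts. These are correlations across genes, which are not independent replicates.

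**Figure D1:**
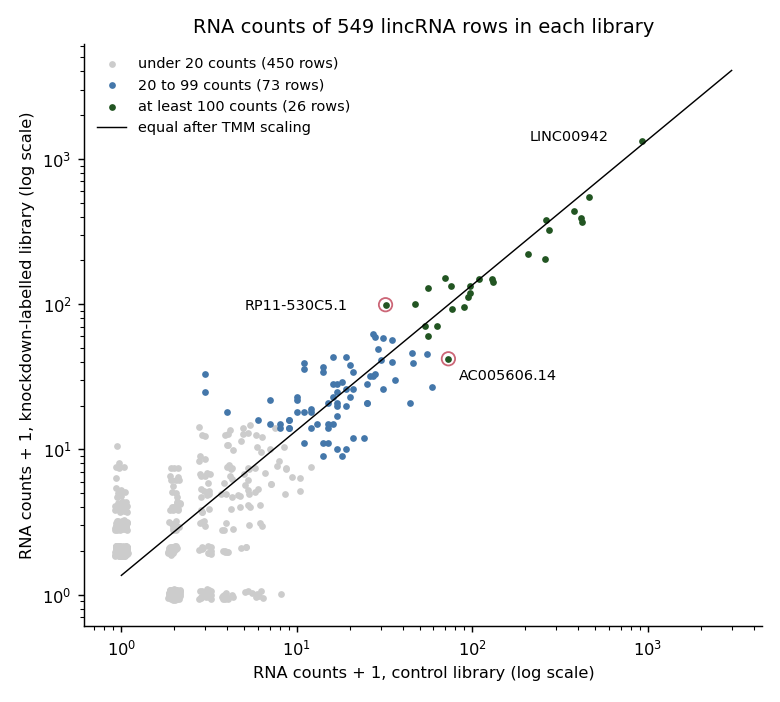
RNA counts + 1 of each lincRNA row in the control library (x axis, log scale) and the knockdown-labelled library (y axis, log scale), 1 point per row, with grey points shifted slightly to separate them and the line showing equal levels after scaling. Most rows sit at 1 to 5 counts, LINC00942 stands alone at 922 and 1325, and the circled rows RP11-530C5.1 and AC005606.14 are the ones called among the 26 with at least 100 counts.

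A few rows carried most of the class. The 12 rows with most counts held 57.3% of all lincRNA counts in the control library and 52.3% in the knockdown-labelled library. LINC00942 (ENSG00000249628, hg19 chr12:1609691-1616484, listed on the minus strand), a lincRNA studied in gastric and breast cancer, led with 922 counts in the control library and 1325 in the knockdown-labelled library. That was 1736 counts per 1000000 of the scaled total (CPM; exact Poisson 95% interval 1626 to 1852) and 1842 CPM (1744 to 1944), or 13.32% and 14.99% of the class. RefSeq places the gene on the plus strand, so its listed neighbour relation, 4601 bases tail to tail with ERC1, depends on the listed strand.

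The next rows had few names of known function. RP11-513I15.6, on chromosome 6 with no listed gene within 5000 bases, had 463 counts and 543. RP3-430N8.11 on chromosome 22 had 379 and 439, and the shorter RP3-430N8.10, which lies wholly inside it on the same strand, had 207 and 219. Reads of these overlapping rows could have been assigned to either. RP11-79P5.2, now named FOXD1-AS1, had 417 counts in the control library and 388 in the knockdown-labelled library. Of the remaining 7, AC092171.4 (271 and 321 counts) ends 747 bases from the end of FBXL18, an F-box gene, and 6 overlap a coding gene on the other strand.

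Per length the order of these 12 rows was different. In the deposited RPKM, which divides by gene length and depth, RP11-79P5.2 led with 62.6 in the control library and 46.7 in the knockdown-labelled library. RP3-430N8.10 followed with 49.96 and 42.5, RP3-430N8.11 with 44.2 and 41.1, RP11-203M5.8 with 33.3 and 21.0, and LINC00942 with 24.3 and 28.0. RP11-513I15.6, second by counts, was at 4.15 and 3.92. With 1 library per group, this order has no measure of spread. RP11-79P5.2, RP3-430N8.10 and RP3-430N8.11 kept the same order in both libraries, while LINC00942 and RP11-203M5.8 changed places between them. Over the 26 rows with at least 100 counts the median RPKM was 6.12 in the control library and 7.82 in the knockdown-labelled library. Under the same filter it was 1.65 and 1.71 for protein-coding rows and 8.39 and 8.66 for antisense rows. Because the filter is on counts, a shorter gene needs a higher RPKM to pass it, so these medians do not rank the classes by level.

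**Figure D2:**
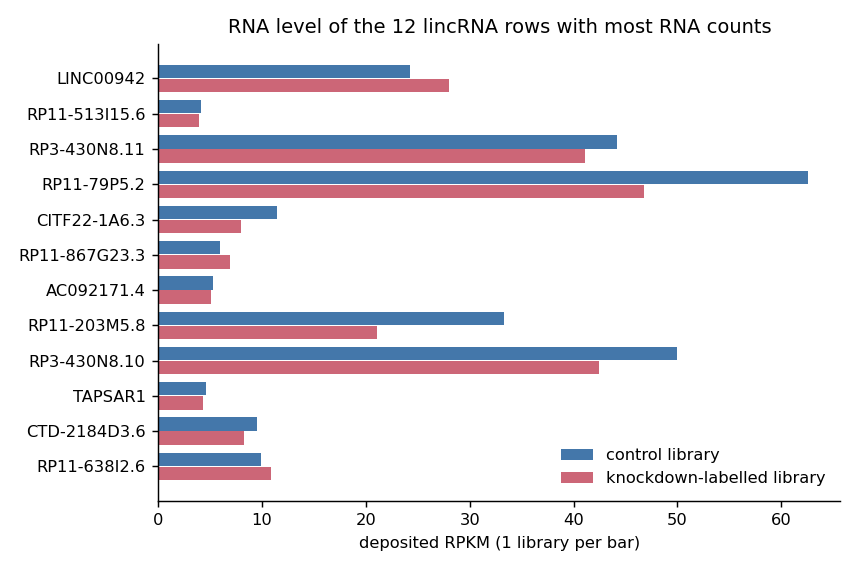
Deposited RPKM (x axis) of the 12 lincRNA rows with most RNA counts (y axis, ordered by counts), 1 bar per library. RP11-79P5.2 has the highest bar in each library, at 62.6 and 46.7, while RP11-513I15.6, second by counts, is at 4.15 and 3.92.

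The lincRNAs best known from other cells were present at few counts. Of 95 genes on 5 lists (small RNA hosts, nuclear RNAs, RNAs reported to hold small reading frames, RNAs reported in ferroptosis and in carcinomas), 16 are lincRNA rows here, and 0 of the 16 reached 20 counts. Their counts summed to 18 in the control library and 36 in the knockdown-labelled library. MALAT1 had 3 and 12 counts, NEAT1, the scaffold of paraspeckles, had 4 and 3, and LINC00657 (NORAD, which binds Pumilio proteins) had 5 and 2. A low count in this table need not be a low level in the cells. Of the 13934 protein-coding rows, 4751 had no RNA count, while 12670 had a footprint. Another 15 list genes are present under other biotypes, and 3 of them held over 100 counts. LINC00094, listed as antisense, had 205 and 324 RNA counts. SLC7A11-AS1, on the ferroptosis list and named as antisense to the cystine transporter gene SLC7A11, had 156 and 177, and OIP5-AS1 had 126 and 123, both listed as processed transcripts. GAS5, a snoRNA host, had 13 and 13.

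Where a row lies relative to coding genes went with how many counts it held. The 90 rows (16.4%) that overlap a protein-coding gene on the opposite strand had a median of 14.5 counts, and 40 of them (44.4%) reached 20. The other 459 rows had a median of 3 counts, and 12.9% reached 20. Those 90 rows held 38.6% of all lincRNA counts in the control library and 36.4% in the knockdown-labelled library, and made up 16 of the 26 rows with at least 100 counts. Medians were 4 counts for the 46 rows overlapping some other row on the opposite strand, 5 for the 33 rows lying tail to tail within 5000 bases of a listed gene, and 2 for the 60 rows lying head to head. The 246 rows with no listed gene within 5000 bases also had a median of 2, and 9.35% of them reached 20 counts. A listed gene is one with a row in the table, so genes that it lacks were not seen and may lie nearer. Spans include introns, so an overlap of spans need not be an overlap of exons.

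**Figure D3:**
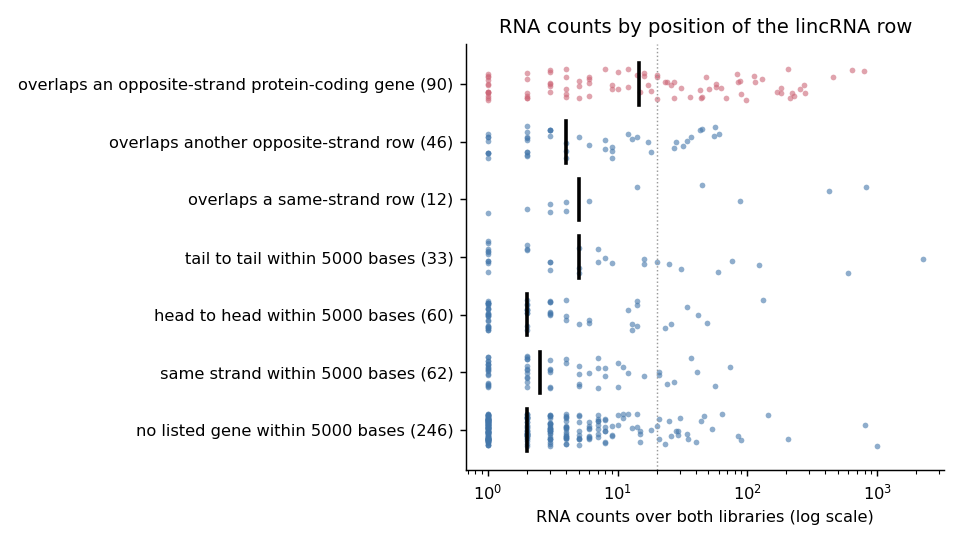
RNA counts over both libraries (x axis, log scale) of each lincRNA row, grouped by position relative to listed genes (y axis, number of rows in brackets), with black bars at the medians and a dotted line at 20 counts. Rows overlapping an opposite-strand protein-coding gene have a median of 14.5 counts, against 2 to 5 in the other positions.

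Each of the 90 rows was set beside the coding gene it overlaps, the one with most footprints where there were several. The partners had a median of 2 RNA counts over both libraries and a median of 128 footprints, and 84 of 90 had a footprint. The lincRNA had more RNA counts than its partner in 70 pairs, but 25 of those partners had no RNA count, while every lincRNA row in the table has one, so those 25 are fixed by what the table holds. In the 65 pairs with RNA counts on both sides, the lincRNA had more in 45, the counts were equal in 1 and the partner had more in 19. Their medians were 20 RNA counts for the lincRNA, 5 RNA counts for the partner and 190 footprints for the partner. Per length, the lincRNA had the higher RPKM in both RNA libraries in 52 of the 65. How the assignment of reads to strands bears on these values was not tested.

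The pairs among the rows with most lincRNA counts are given as a description, since they were chosen for those counts. RP11-203M5.8 lies wholly inside PNP, which encodes a purine salvage enzyme, on the other strand. It had 257 and 202 RNA counts, while PNP had 0 RNA counts in both libraries and 353 and 284 footprints. RP11-867G23.3 overlaps RAB1B, a small GTPase of transport from the endoplasmic reticulum to the Golgi, and had 261 and 379 RNA counts against 1 and 7 for RAB1B, which had 951 and 979 footprints. CITF22-1A6.3 lies inside ALG12, a mannosyltransferase of N-glycan assembly, and had 421 and 365 RNA counts against 1 and 12 for ALG12, which had 390 and 361 footprints.

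Of the other leading rows, TAPSAR1, now PSMB8-AS1, overlaps TAP1, a subunit of the peptide transporter of antigen presentation. It had 128 and 149 RNA counts against 18 and 53 for TAP1. CTD-2184D3.6 overlaps GNB5, a G protein beta subunit, and had 130 and 141 RNA counts against 1 and 0. RP11-638I2.6 lies inside SLC25A29, a mitochondrial carrier of basic amino acids, and had 108 and 147 RNA counts against 1 and 1. SLC25A29 differs from the other partners in having few footprints, 10 in the control library and 4 in the knockdown-labelled library. Among the 19 pairs in which the partner had more RNA counts, the partners with most were C5orf66, LPCAT3 and RBM25. C5orf66 had 479 and 688 RNA counts and only 5 and 7 footprints, while CTC-276P9.1 inside it had 0 and 2 RNA counts. RBM25, a splicing regulator, had 38 and 119 RNA counts and 86 and 107 footprints, against 2 and 8 RNA counts for RP11-109N23.4.

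The lincRNA counts also differed with the arrangement of a pair, and went only weakly with the footprints of the partner. Pairs that overlap head to head had a median of 8 lincRNA counts over 27 pairs, those that overlap tail to tail 51 over 17, and lincRNAs lying inside their partner 19 over 44. These arrangements also differed in the median share of the lincRNA span that is overlapped, at 8.76%, 21.8% and 100%. The median footprints of the partners were 224 in the head to head pairs and 163 in the tail to tail pairs, so the order of the lincRNA counts was not that of the footprints. Partners under 10 footprints had lincRNAs with a median of 5.5 counts (18 pairs), those with 10 to 99 footprints 7.5 (24 pairs), those with at least 100 but under 500 footprints 27 (29 pairs) and those with at least 500 footprints 16 (19 pairs). Across the 90 pairs the Spearman correlation of lincRNA counts with partner footprints was 0.249, and with partner RNA counts 0.187.

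**Figure D4:**
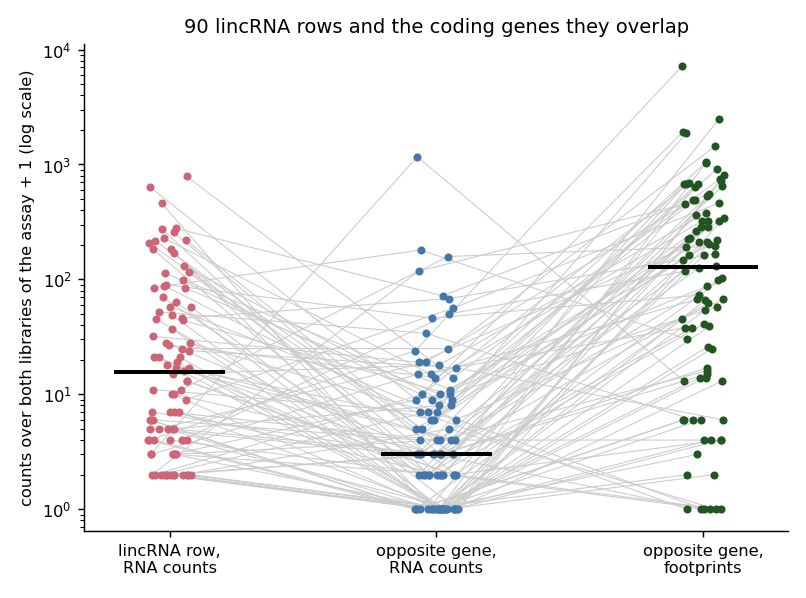
Counts + 1 over both libraries of the assay (y axis, log scale) for the 90 lincRNA rows that overlap an opposite-strand coding gene, with lines joining the values of a pair and black bars at the medians. Medians before adding 1 are 14.5 RNA counts for the lincRNA, 2 RNA counts for the coding gene, where 25 genes have none, and 128 footprints for the coding gene.

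The next comparison asked which lincRNAs differed between the knockdown-labelled and the control RNA library. Ratios are log2 of knockdown-labelled over control after scaling of the totals, with 95% counting intervals, and a row is called when it is at least 2-fold apart and its interval leaves out 0. Of the 26 lincRNA rows with at least 100 counts, 1 was called higher and 1 lower. Their counts over both libraries were 129 and 113. Each passed the minimum mainly through the library where it is higher, so these calls are a description. Over all 1311 rows under the same filter, 38 were called higher (2.9%) and 17 lower (1.3%), so the lincRNA count is near what that background gives for 26 rows. The median log2 ratio was -0.20 for the 26 lincRNAs and -0.13 for all rows. Intervals lay above 0 for 4 of the 26 (15.4%, against 15.03% of all rows), below 0 for 7 (26.9%, against 30.2%), and held 0 for 15. With totals without TMM the split was 6 above and 4 below (all rows 21.7% and 20.9%), and with median-of-ratios size factors 4 above and 10 below (all rows 11.1% and 40.3%).

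The row called higher, RP11-530C5.1, is now PPP1R12A-AS2 (ENSG00000258048, hg19 chr12:80083924-80172231, plus strand). It had 31 counts in the control library and 98 in the knockdown-labelled library, a log2 ratio of 1.21 (0.63 to 1.79), and its RPKM was 5.73 and 14.2. It overlaps PAWR, which encodes a pro-apoptotic protein, head to head over 954 bases, or 1.08% of its span. PAWR is the overlapped coding gene with most footprints, and any other gene that the row overlaps was not set beside it. PAWR had 1 and 6 RNA counts and 442 and 479 footprints, with a footprint log2 ratio of 0.07 (-0.12 to 0.26). The row called lower, AC005606.14 (ENSG00000261790, hg19 chr16:2034878-2036854, minus strand), had 72 counts in the control library and 41 in the knockdown-labelled library, a log2 ratio of -1.24 (-1.79 to -0.69). It lies inside GFER, a sulfhydryl oxidase of the mitochondrial intermembrane space, which had 5 and 3 RNA counts and 129 and 80 footprints, with a footprint log2 ratio of -0.73 (-1.13 to -0.33).

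Both lincRNAs with back to back RefSeq starts shown above were higher in the knockdown-labelled library without reaching 2-fold. They were chosen after their values were seen and do not stand for such rows in general. The 6 rows lying head to head within 5000 bases of a listed gene, with at least 20 counts, had a median log2 ratio of 0.06. That of all rows under this filter was 0.02. In the listed hg19 spans the 2 lincRNAs overlap their partners head to head, TMEM202-AS1 over 843 bases and TMED2-DT over 585. RP11-1007O24.3 (TMEM202-AS1) had 55 counts in the control library and 128 in the knockdown-labelled library, a log2 ratio of 0.77 (0.32 to 1.23). Its coding partner ARIH1, a ubiquitin ligase, had 1 and 0 RNA counts and 324 and 351 footprints. RP11-486O12.2 (TMED2-DT) had 69 and 150 counts, a log2 ratio of 0.68 (0.27 to 1.09). TMED2, a cargo receptor of the early secretory pathway, had 1 and 1 RNA counts and 1220 and 1285 footprints, a footprint log2 ratio of 0.03 (-0.08 to 0.14). The fourth row whose interval lay above 0 was HIF1A-AS1, with 46 and 99 counts and a log2 ratio of 0.66 (0.16 to 1.16).

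Among the leading rows, RP11-203M5.8 was at -0.78 (-1.05 to -0.52), CITF22-1A6.3 at -0.64 (-0.85 to -0.44) and RP11-79P5.2 at -0.54 (-0.74 to -0.34). PNP, opposite RP11-203M5.8, had a footprint log2 ratio of -0.36 (-0.59 to -0.13), and ALG12, opposite CITF22-1A6.3, of -0.16 (-0.36 to 0.05). LINC00942 was at 0.09 (-0.04 to 0.21), a ratio whose sign changed with the scaling of the libraries. Over the 26 pairs with at least 20 lincRNA counts and at least 100 partner footprints, the lincRNA RNA ratio and the partner footprint ratio had the same sign in 17, with a Spearman correlation of 0.298. No such share was computed for other rows, and the sign of a ratio near 0 depends on the scaling, so a link was not tested.

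**Figure D5:**
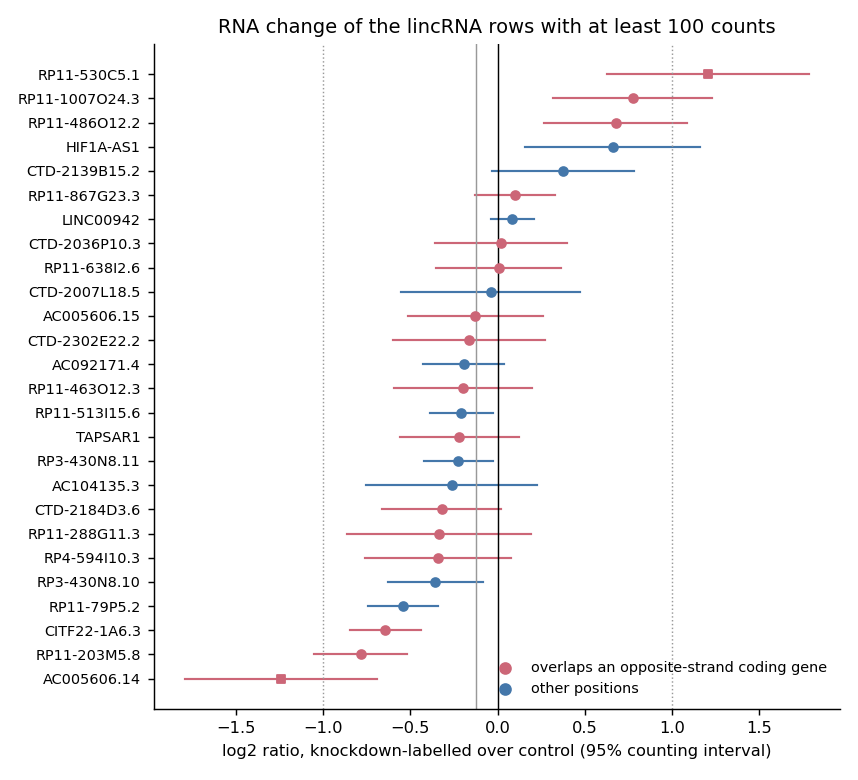
Log2 ratio of knockdown-labelled over control RNA (x axis, with 95% counting intervals) of the 26 lincRNA rows with at least 100 counts (y axis), with squares for the called rows, dotted lines at 2-fold and a grey line at the median of all rows, -0.13. RP11-530C5.1 is called higher at 1.21 and AC005606.14 lower at -1.24, and both overlap an opposite-strand coding gene.

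With the filter lowered to 20 counts, 8 of 99 lincRNA rows were called higher and 8 lower. Over all 3183 rows this filter gave 8.48% higher and 2.86% lower, beside 8 in 99 each way for the lincRNAs. Of the 8 higher rows, 7 had under 20 control counts and 3 had at most 3, so they passed the minimum mainly through the library where they are high, and the counts are a description. Of the rows added as higher, RP11-495P10.8 went from 2 counts to 32, a log2 ratio of 3.26 (1.41 to 5.12), and SH3RF3-AS1 from 2 to 24, a log2 ratio of 2.86 (0.98 to 4.73). RP11-47I22.2 (LINC01303) had 10 and 38 counts, RP11-727A23.11 (PCF11-AS1) 10 and 35, RP11-403P17.3 15 and 42, MAPKAPK5-AS1 6 and 21, and LINC00452 3 and 17. PCF11, a factor of transcription termination opposite PCF11-AS1, had 35 and 32 RNA counts.

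Among the lower rows, U47924.30 lies inside LPCAT3, an acyltransferase that places polyunsaturated chains into phospholipids. The lincRNA had 58 counts in the control library and 26 in the knockdown-labelled library, a log2 ratio of -1.58 (-2.24 to -0.92), while LPCAT3 on the other strand had 68 and 111 RNA counts and 15 and 14 footprints. RP11-1100L3.8, now NR4A1AS, had 43 and 20 counts, a log2 ratio of -1.52 (-2.28 to -0.77). It overlaps NR4A1, an orphan nuclear receptor, which had 0 RNA counts in both libraries and 22 and 16 footprints. The other 5 lower rows added at this filter had 16 to 23 counts in the control library and 8 to 11 in the knockdown-labelled library.

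Footprints were the last readout. Of 549 lincRNA rows, 1 had any footprint, against 12670 protein-coding rows (90.9%), 0 of 1997 antisense rows and 5 of 116 processed transcript rows. Among rows with at least 100 RNA counts, 0 of 26 lincRNA rows and 598 of 733 protein-coding rows had a footprint. LINC00942, with 922 and 1325 RNA counts, had 0 footprints in both, and a count of 0 leaves room for 0.809 CPM in the control library and 0.783 CPM in the other. Counting of footprints over annotated coding sequence alone, or over whole genes, was not given in the sources used here, so a 0 in these rows is a count in the table and bounds no translation. Of the lincRNA rows, 9 are protein-coding genes in RefSeq now, among them SPAAR and SMIM26, which encode small proteins, and these had 1 to 4 RNA counts each and 0 footprints.

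The exception was AP000318.2 (ENSG00000214955, hg19 chr21:35577356-35697334, plus strand), which has no listed gene within 5000 bases. Footprints numbered 131 in the control library, at 35.3 CPM (29.5 to 41.9), and 113 in the knockdown-labelled library, or 29.5 CPM (24.3 to 35.5). The footprint log2 ratio was -0.26 (-0.62 to 0.10), with an interval that holds 0, against a median of -0.02 over the 7050 rows with at least 100 footprints. Its RNA counts were 3 and 1, so the lincRNA with footprints is among those with few RNA counts. LINC00998, reported elsewhere to hold a translated small reading frame, is listed in this table as protein-coding and had 15 and 11 footprints.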

How the data were processed

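RNA and ribosome footprints were counted in 4 libraries, 1 per group, with groups and assays from the titles. Named in the submitters' processing notes are the tools FastQC, cutadapt, Bowtie and STAR (neither version nor role given) and the genome build hg19. Deposited per gene are whole-number counts of reads, whose counter was not given in the sources used here. RPKM (reads scaled by length and depth) were used as the authors deposited them. Their deposited ratio of footprint to RNA RPKM was not used. No column of another sample was used.

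Members are all rows of biotype lincRNA. The members, lists and rules were chosen with earlier results of these data known. Totals were 554075 and 689375 RNA counts and 3795680 and 3742513 footprints (control, knockdown-labelled). They were scaled by TMM in edgeR 4.0.16, with factors of 0.958 and 1.04 for RNA and 0.977 and 1.02 for footprints. Log2 ratios used a prior count of 0.5 and a minimum of 100 counts over 2 libraries, on the whole table. No p-value is given, and every difference is between single libraries. The calculation was tested on simulated data. Promoters were matched to RefSeq by current or deposited symbol, and current names cover 243 of 549 rows. Promoters on chromosome 8 were left out, also from the set called all promoters.

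Named are the 12 rows with most RNA counts, up to 8 called rows each way, rows with footprints, list members with at least 20 RNA counts, and the gene each overlaps. The pairs in which the partner had more RNA counts were added after the values were seen. Other rows were chosen after their values were seen. Alternatives were totals without TMM, DESeq2 1.42.0 size factors, RPKM plus 0.1, minimums of 20 and 1 reads, a 1.5-fold limit, a prior of 5, no mitochondrially encoded genes, and subsets by position.

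KRT18, a keratin of simple epithelia, had 462 and 538 footprints, KRT8 17 and 15, and EPCAM 0 and 2. PTPRC, a blood cell marker, had 1 and 0 RNA counts and 0 footprints.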

Additional observations from a re-analysis of the deposited data

How the results depend on the processing

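No paired analysis was possible because each group holds 1 library, and leaving out a library could not be run for the same reason. The call of 1 lincRNA higher and 1 lower was the same with totals without TMM, size factors, the deposited RPKM, a prior count of 5 and no mitochondrially encoded genes. Both counts were 8 with a minimum of 20 reads, and were 9 higher and 10 lower with a minimum of 1 read and 4 higher and 3 lower with a 1.5-fold limit. They were 0 and 0 among the rows that overlap no opposite-strand gene and among those with no listed gene within 5000 bases, where only 10 and 4 rows remain. The median log2 ratio of the class was 0.30 with a minimum of 1 read, where that of all rows was 0.36, and 0.083 for rows with no listed gene within 5000 bases. Other scalings moved the median of all rows from -0.13 to 0.00 or -0.24, and with it LINC00942 to between -0.03 and 0.21, RP11-867G23.3 to between -0.01 and 0.22, and RP11-638I2.6 to between -0.11 and 0.14, so the sign of these 3 depends on the scaling. RP11-530C5.1 ran from 1.08 to 1.33 and AC005606.14 from -1.35 to -1.11. The lincRNA share of RNA counts was 1.08% and 1.09% without LINC00942, and 2.37% and 2.28% of the protein-coding and lincRNA counts alone. Rows beside a listed gene numbered 303 at 5000 bases, 231 at 1000 and 441 at 50000. The 1 row with footprints also passed minimums of 3 and 10. A count of 0 allows up to 5.65 CPM in the control RNA library and 4.17 in the knockdown-labelled library, and 357 of the 549 rows hold 1 to 5 counts over both.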

Other observations

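The deposited RPKM imply a greater depth than the table holds. For the 14 lincRNA rows with spans under 1000 bases and at least 50 RNA counts, counts divided by RPKM and span gave a median depth of 12.6 (in units of 1000000 reads) in the control library (7.74 to 18.98) and 15.6 in the knockdown-labelled library (9.51 to 23.0). Because exons cannot be longer than the span, each is a lower limit on the depth, if RPKM follows its usual definition. The table totals of 554075 and 689375 counts were 2.92% and 2.995% of the highest of these values, and so at most that share of the depth.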
